A study of Mus musculus with 60 samples.

Results

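The genes described here encode the subunits of the mitochondrial respiratory chain and ATP synthase, followed in primary mouse hepatocytes that had or lacked the HGF receptor Met. They were chosen by gene symbol alone (names starting with Nduf, Uqcr or Atp5, Sdha to Sdhd, and Cox4 to Cox8), with 1 probe per gene, the one with values on most arrays. No measured level enters that rule, but it was set with earlier results of these data known. The symbols matched 82 probes for 81 genes, of 14442 genes with a probe of 1 symbol on the array, and 66 of the 81 had enough values to be tested. By complex, the tested genes were 25 of 31 for complex I, 3 of 3 for complex II, 6 of 8 for complex III, 10 of 15 for complex IV and 14 of 16 for complex V. The other 8 matched genes, all tested, were the complex I assembly factors Ndufaf2, Ndufaf3, Ndufaf5, Ndufaf6, Ndufaf7 and Ndufaf8 and the pseudogenes Ndufs5-ps and Atp5k-ps1.

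Hepatocytes were isolated from male mice 9 to 10 weeks old. The knock-out cells (KO) carried Alb-Cre +/-, which expresses Cre recombinase from the albumin promoter and so in hepatocytes, on a Met Fl/Fl background of strain 129SV/C57BL6. The control cells (WT) are named as Cre controls on all 30 of their arrays, 6 of which also give a genotype, heterozygous for Cre recombinase, and are labelled strain C57BL, so strain and genotype changed together and cannot be told apart. Cells rested overnight without serum and were taken untreated (0 h) or 0.5, 2, 12 and 24 h after 50 ng/ml recombinant human HGF. Each of these 10 groups has 3 replicates, labelled as cultures of separate mice, and 1 mouse may have given cultures for several times. A pool of WT hepatocyte RNA was the reference on 2 arrays per replicate with the dyes exchanged, and the value of a replicate is its mean log2 ratio to that pool. The log base and the numerator are not stated. Ratios were read as sample over pool, an assumption that no label settles: all 60 arrays list the sample as channel 2 and the pool as channel 1. If the pool was the numerator, every higher and lower below would be turned. The hepatocyte genes Cyp2e1 and Aldh1a1 mostly kept their sign between orientations where they moved most, which shows that both orientations run the same way but not which way. Each treated group is set against the 0 h cultures, so hours of HGF and hours in culture cannot be told apart.

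Complexes I and II pass electrons from NADH and succinate to ubiquinone, complex III passes them on to cytochrome c, and complex IV passes them to oxygen. Complexes I, III and IV pump protons as they do so, and complex V, the ATP synthase, uses the gradient to make ATP. In hepatocytes this chain pays for gluconeogenesis, urea synthesis and detoxification. Most subunits are encoded in the nucleus, whose genes are known targets of the transcription factors NRF1, GABPA (an ETS factor), YY1 and ERRA.

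Promoter sequences from RefSeq (GRCm38.p6, 250 bases before to 50 after each start) were matched for 64 of the 81 genes and searched on both strands, where a match is a string of letters and not a shown binding site. The NRF1 motif (GCGCA and GCGC with any 1 base between them) was found for 14 of the 64 genes (21.9%) and for 5.19% of all 27025 genes. The ETS motif CCGGAAG was found for 15 (23.4%, against 9.93%), the YY1 motif AAGATGGCG for 8 (12.5%, against 1.64%) and the ERRA motif TCAAGGTCA for 0 (against 0.466%). The 150 bases before the start are printed for the 4 genes with the differences the results turn on and for Sdha, the catalytic subunit of complex II, which stands beside Sdhb. Motif matches are in capitals. Sdhb (chr4:140961121-140961270, plus strand) has no match before its start, and its ETS match lies after it. Ndufaf8 (chr11:120098784-120098933, plus strand) has an ETS match next to the start and a YY1 match after it. Ndufs3 (chr2:90904722-90904871, minus strand) has an ETS match before its start and another after it. Atp5j (chr16:84834977-84835126, minus strand) has a YY1 and an ETS match, and Sdha (chr13:74350241-74350390, minus strand) 3 NRF1 matches. Atp5j has 2 promoters, of which the one with most matches before the start is printed, and the other has none.
Sdhb: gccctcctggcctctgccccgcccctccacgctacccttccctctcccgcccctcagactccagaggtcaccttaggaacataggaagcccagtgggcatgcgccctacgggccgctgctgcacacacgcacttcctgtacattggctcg
Ndufaf8: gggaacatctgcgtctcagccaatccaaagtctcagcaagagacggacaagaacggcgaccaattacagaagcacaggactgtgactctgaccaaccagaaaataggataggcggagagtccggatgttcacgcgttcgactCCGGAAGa
Ndufs3: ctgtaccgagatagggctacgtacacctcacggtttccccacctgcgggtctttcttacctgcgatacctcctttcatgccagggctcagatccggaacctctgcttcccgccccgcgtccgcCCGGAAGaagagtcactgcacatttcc
Atp5j: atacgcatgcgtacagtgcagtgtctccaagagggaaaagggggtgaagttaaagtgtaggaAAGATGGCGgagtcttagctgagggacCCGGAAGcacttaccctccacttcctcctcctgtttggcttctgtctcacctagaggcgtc
Sdha: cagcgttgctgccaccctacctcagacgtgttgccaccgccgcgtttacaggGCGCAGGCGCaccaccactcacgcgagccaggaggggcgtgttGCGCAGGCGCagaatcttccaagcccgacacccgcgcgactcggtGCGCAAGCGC

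Some properties of the series touch every value below. Of 21997 probes, 14580 were tested, and array numbers fall into 4 sets: all 12 h replicates lie in set C and all 0.5 h and 2 h replicates in set D except KO 2 h replicate 3, which lies in set A. The untreated replicates lie in sets A, B and C, so for the early times HGF and array set are almost fully confounded. At 24 h, replicate 3 of each genotype lies in set B and the other replicates in set C, with 1 exception. WT 24 h replicate 2 has its Cy5 array in set C and its Cy3 array in set B, and was counted in set C. The single Met probe did not differ between KO and WT (0.08 ± 0.08 over the 5 times, adjusted p 0.648 by limma), so it does not check the labels, and its position against the floxed exons was not looked at. Of 9 hepatocyte markers tested, 4 fell at 24 h in WT (44.4%, against 8.72% of all probes called) and 5 in KO (55.6%, against 3.48%). Ratios to a hepatocyte pool cannot show how strongly such markers are expressed, so they do not check the cell type label. In bulk RNA fewer cells of a type and less RNA per cell cannot be told apart.

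Respiratory chain genes as a group read differently with the 2 dyes. With the sample in Cy5 their median log2 ratio was 0.56 in KO at 12 h, and with the sample in Cy3 it was -0.24. In WT at 12 h the medians were 0.55 and -0.54, and 62 of the 66 genes were higher in Cy5. The medians were close in untreated WT (0.06 and -0.00), with 40 genes higher in Cy5, but its replicates ran opposite ways and partly cancelled. Atp5b there was 0.36, 0.24 and -0.69 in Cy5 and -0.25, -0.34 and 0.20 in Cy3. The orientations also lay close in KO at 2 h (0.14 and 0.07), with 38 genes higher in Cy5. Over all tested probes the medians stayed between -0.03 and 0.12 in Cy5 and between -0.09 and 0.02 in Cy3. The mean of both orientations, used from here on, ranged from -0.01 in WT at 2 h to 0.20 in WT at 0.5 h. The disagreement spans the array: over all probes the orientations of a replicate correlated negatively in 21 of 30 replicates, with r from -0.58 to 0.22. An offset between dyes cancels in that mean only as far as it is equal and opposite on the arrays of a replicate.

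The direction of 1 array is not settled. Of pairs of arrays with the sample in the same dye, 19 had r under -0.3, and all 19 held the Cy5 array of WT 0 h replicate 3, which enters every HGF comparison in WT and the untreated genotype comparison. WT 0 h replicate 3 ran the other way from replicates 1 and 2: its Ndufs3 ratio was -0.87 in Cy5 and 0.95 in Cy3, against 0.30 and 0.29 in Cy5 and -0.37 and -0.37 in Cy3 for the other untreated WT replicates. As deposited, the 2 Ndufs3 values of replicate 3 nearly cancelled in its mean. The alternative turned the Cy5 array alone, which ends that, and no alternative changed both arrays, so it cannot settle the direction. With the sign of the Cy5 array turned, 8 of the 14 calls described below were lost, some through the spread that all groups share. The calls of Sdhb and Ndufaf8 averaged over the times were kept.

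**Figure D1:**
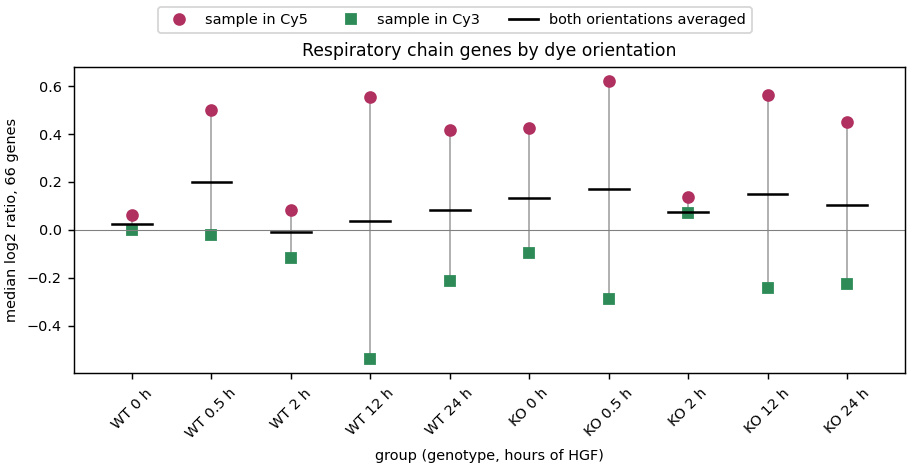
Median log2 ratio over the 66 tested respiratory chain genes in each of the 10 groups, with the sample in Cy5 (circles), in Cy3 (squares) and as the mean of both (bars). The orientations lay furthest apart in WT at 12 h (0.55 and -0.54), and the means of both stayed between -0.01 and 0.20.

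Few respiratory chain genes were called in any comparison, and the counts moved with how the dyes were treated. A gene is called where limma's two-sided test, with Benjamini-Hochberg adjustment over all 14580 probes, gave an adjusted p under 0.05. Between KO and WT, 0 genes were called at 0 h (all probes 0.0617%), 5 at 0.5 h (all probes 4.3%), 0 at 2 h (0.432%), 0 at 12 h (2.84%) and 0 at 24 h (4.77%). At the 4 times without a call, limma gave an unadjusted p under 0.05 for 4, 5, 10 and 2 genes, in that order. These are 6.06, 7.58, 15.2 and 3.03% of the genes, against 5.22, 8.61, 14.1 and 19.5% of all probes. Averaged over the 5 times, 3 of 66 genes were called, against 10.1% of all probes, and 14 had an unadjusted p under 0.05, which is 21.2% against 22.8% of all. With the leading dye profiles removed the averaged count was 19 of 66, 18 of them higher in KO (28.8%, against 12.7% of all probes).

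Over hours of HGF in WT, 1 gene was called at 0.5 h (all probes 0.123%), 1 at 2 h (0.446%), 1 at 12 h (5.81%) and 2 at 24 h (8.72%). On Cy3 arrays only, the 12 h count was 14 of 72 (19.4%, against 5.47% of all probes). In KO, 0 were called at 0.5 h (0.00686%), 0 at 2 h (0.0343%), 0 at 12 h (0.13%) and 1 at 24 h (3.48%). At the first 3 of these times limma's unadjusted p was under 0.05 for 2, 4 and 1 genes. That is 3.03, 6.06 and 1.52%, against 4.43, 5.92 and 8.37% of all probes. These comparisons share the untreated replicates of their genotype. The difference between the KO and WT responses was called for 0 genes at 0.5, 2, 12 and 24 h (all probes 0.00686, 0.0274, 0.0754 and 0.727%). Unadjusted p was under 0.05 in limma for 6, 1, 0 and 2 genes. That is 9.09, 1.52, 0 and 3.03%, against 8.77, 4.68, 6.07 and 12.2% of all probes. The 95% interval of a difference between groups reached 0.28 to either side for the median gene, and 0.13 for the difference averaged over time. In that average the intervals of all 66 genes lay within 0.5 of 0, so larger genotype differences over the time course as a whole were outside every interval.

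**Figure D2:**
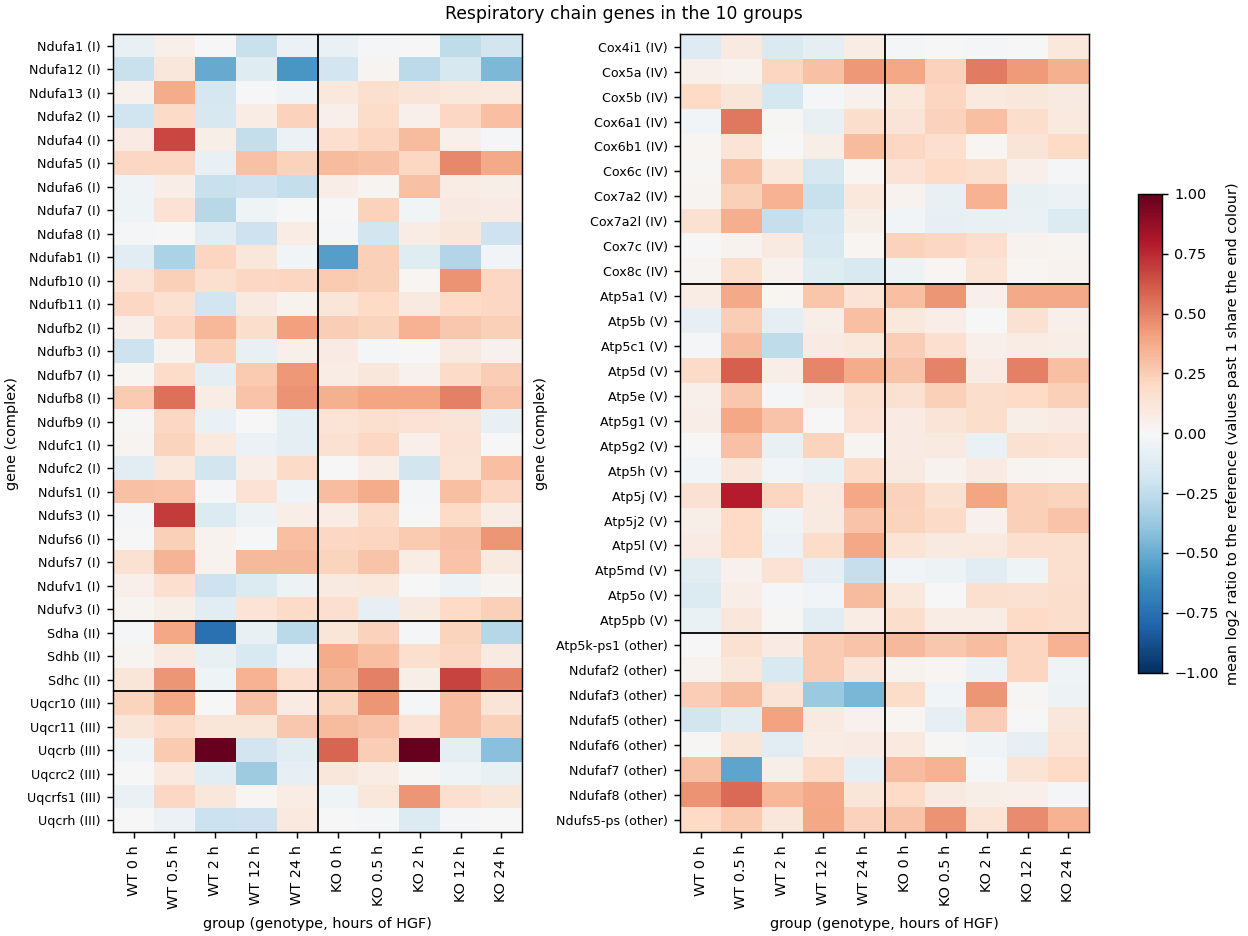
Mean log2 ratio to the reference pool (colour) for the 66 tested respiratory chain genes (rows, with the complex in brackets) in the 10 groups (columns, WT left and KO right of the line). Most cells lie near 0, and Uqcrb at 2 h stands out in both genotypes, with means of 1.21 in WT and 1.47 in KO.

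Among complex I genes, Ndufs3 was called in 2 comparisons, both at 0.5 h and both with the same WT replicates. Ndufs3, a core iron-sulfur subunit of the arm that reaches into the matrix, read 0.71, 0.68 and 0.70 in WT at 0.5 h. The untreated WT values were -0.03, -0.04 and 0.04, and the KO values at 0.5 h were 0.18, 0.12 and 0.27. WT at 0.5 h thus lay above both groups without overlap, and all WT values at 2, 12 and 24 h were back at or below 0.16.

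The rise of Ndufs3 in WT was 0.71 ± 0.09 (1.64-fold, adjusted p 5.08e-04 by limma), and KO was lower than WT at 0.5 h by -0.51 ± 0.09 (adjusted p 0.00391). With the sign of the doubtful WT array turned, the rise was 0.42 (adjusted p 0.466 by limma) and the genotype difference kept its size with an adjusted p of 0.0609. The difference between the KO and WT responses was -0.59 ± 0.13 (adjusted p 0.182 by limma), and -0.58 (adjusted p 0.0469) without WT 0 h replicate 2. Ndufs3 in WT at 0.5 h was 0.45, 0.52 and 0.53 in Cy5 and 0.96, 0.84 and 0.88 in Cy3. In KO the Cy5 values of Ndufs3 were 0.62, 0.64 and 0.42 and the Cy3 values -0.26, -0.39 and 0.12. The genotypes overlapped in Cy5 and were apart in Cy3, so the Ndufs3 genotype difference turned to 0.06 on Cy5 arrays only. With array set as a term the rise was 0.76 (adjusted p 0.207 by limma), and set and time are almost the same there. With only the WT 0 h and 0.5 h groups fitted its adjusted p was 0.447 by limma.

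Ndufa4, known as a subunit that associates with complex IV but grouped with complex I by its symbol, was also lower in KO at 0.5 h. Its values were 0.72, 0.55 and 0.73 in WT and 0.23, 0.25 and 0.16 in KO, with no overlap. The difference was -0.45 ± 0.13 (adjusted p 0.0465 by limma). This Ndufa4 call was lost when any 1 of the 6 replicates was left out (-0.51 to -0.42, adjusted p 0.0678 to 0.164), and on Cy5 arrays only the difference was 0.12.

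Ndufa6, an accessory subunit on the matrix side, was higher in KO by 0.23 ± 0.07 averaged over the times (adjusted p 0.042 by limma, 15 and 15 replicates). The 5 differences of Ndufa6 were 0.11, -0.04, 0.52, 0.28 and 0.30 in order of time. At 2 h Ndufa6 was 0.31, 0.22 and 0.34 in KO and -0.12, -0.44 and -0.12 in WT, which did not overlap, with an adjusted p of 0.207 in limma. The averaged Ndufa6 call was kept in only 8 of 30 leave-outs of 1 replicate (0.20 to 0.29), and without WT 2 h replicate 2 its adjusted p was 0.0777. It was kept in 7 of 13 alternative analyses, and was 0.14 on Cy3 arrays (adjusted p 0.641), 0.33 on Cy5 arrays (0.220) and 0.17 with the sign of the doubtful WT array turned (0.231 by limma).

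Among other complex I subunits, Ndufab1, the mitochondrial acyl carrier protein, varied most between replicates (residual SD 0.379). Its largest difference between 2 groups, HGF for 0.5 h in KO, was 0.78 ± 0.29 (adjusted p 0.948 by limma). The difference between its KO and WT responses at 0.5 h was 0.99 ± 0.40 (adjusted p 0.500 by limma). Ndufs1, the largest subunit of the electron-entry module, had group means from -0.04 ± 0.46 (SD, n = 3) in WT at 24 h to 0.37 ± 0.09 (SD, n = 3) in KO at 0.5 h. Ndufv1, which binds the flavin that takes electrons from NADH, ranged from -0.21 to 0.17, and the membrane-arm subunit Ndufb8 from 0.07 to 0.55. None of the 3 was called in any of the 18 comparisons. Ndufa2 after 24 h of HGF in WT (0.43 ± 0.14, adjusted p 0.0528 by limma) lay just outside the threshold.

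In complex II, Sdhb was called between genotypes on average over the time course, and at no single time. Sdhb, the iron-sulfur subunit that carries electrons from the flavin of Sdha towards ubiquinone, was higher in KO by 0.25 ± 0.05 averaged over the times (95% interval 0.15 to 0.36, adjusted p 0.00114 by limma, 14 KO and 15 WT replicates). Untreated, Sdhb was 0.40, 0.40 and 0.30 in KO and -0.12, -0.01 and 0.21 in WT, so every KO value lay above every WT value. At 0.5 h the values were 0.33, 0.21 and 0.38 in KO and 0.02, 0.07 and 0.20 in WT, again without overlap.

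At 2 h Sdhb was 0.26 and 0.06 in KO, where replicate 2 had no value, and -0.14, 0.04 and -0.13 in WT. At 12 h it was 0.34, 0.02 and 0.25 in KO and -0.18, -0.21 and -0.08 in WT. The genotypes were apart at both times and overlapped at 24 h (KO -0.01, 0.18 and 0.10, WT -0.10, 0.01 and -0.01). The 5 Sdhb differences were 0.34, 0.21, 0.23, 0.36 and 0.13 in order of time, none called on its own, with the lowest adjusted p in limma at 12 h (0.0745). The averaged difference was kept in 30 of 30 leave-outs (0.23 to 0.27). The value was 0.24 on Cy5 arrays (adjusted p 0.064) and 0.27 on Cy3 arrays (adjusted p 0.0501 by limma), so each orientation alone missed the threshold with about the same size.

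Sdha, the flavin-binding subunit that oxidizes succinate, read -0.88, -0.57 and -0.79 in WT at 2 h. In KO at 2 h it read -0.19, 0.06 and 0.11, and in untreated WT 0.08, 0.28 and -0.41. WT at 2 h lay below both without overlap. KO minus WT was 0.74 ± 0.22 (95% interval 0.29 to 1.19, adjusted p 0.150 by limma), and the change of Sdha in WT was -0.73 ± 0.22 (adjusted p 0.131), so neither was called. With array set as a term, the 2 h genotype difference of Sdha was 0.68 and was called (adjusted p 0.016 by limma). Sdhc, a membrane anchor of the complex, differed by 0.21 ± 0.08 averaged over the times (adjusted p 0.128 by limma) and Sdha by 0.20 ± 0.10 (adjusted p 0.219).

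**Figure D3:**
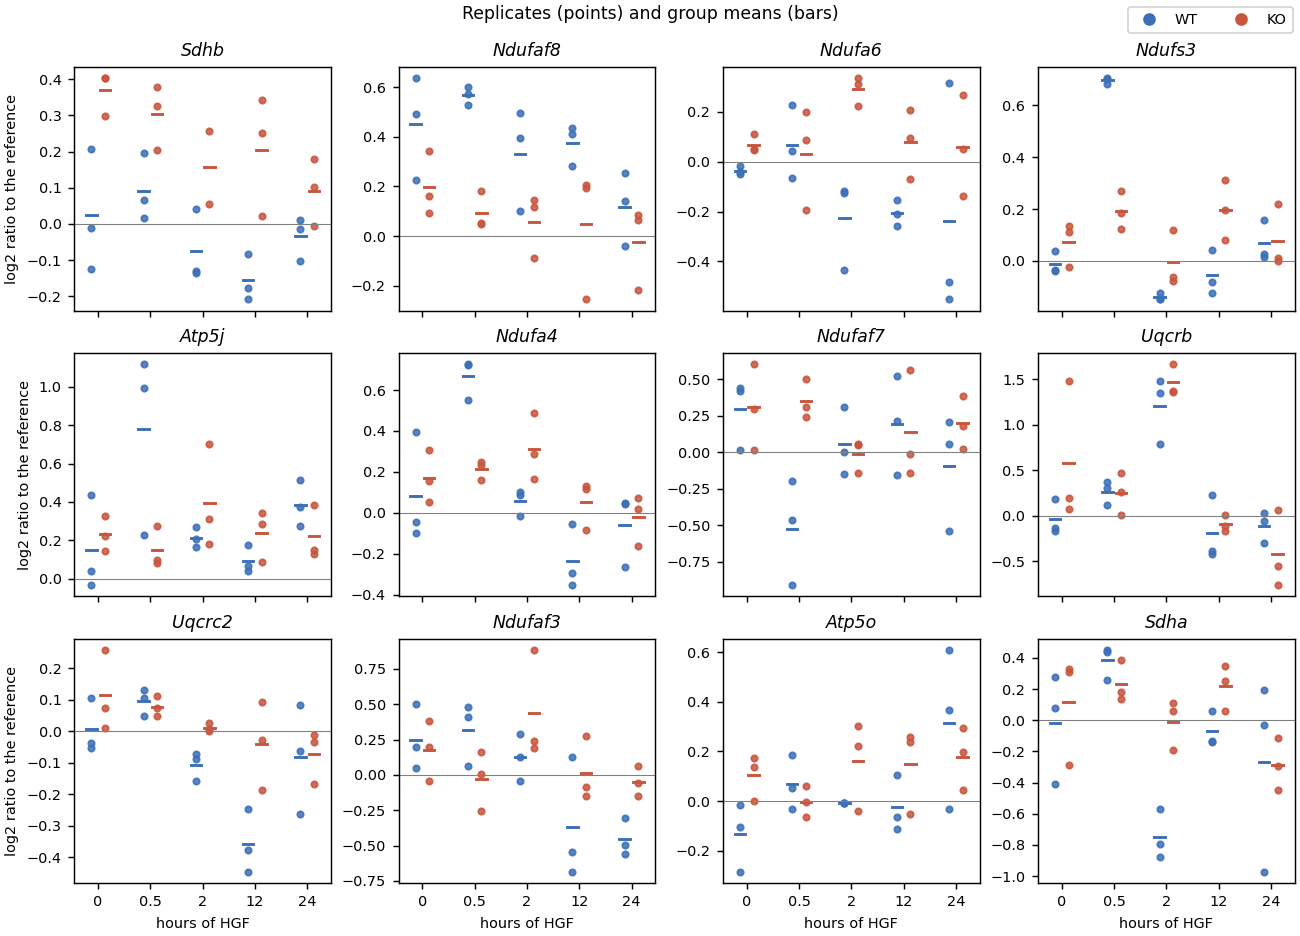
Log2 ratio to the reference pool of each replicate (points) and group means (bars) over hours of HGF for the 11 genes called in any comparison and Sdha, WT in blue and KO in red, each panel with its own scale. Sdhb had the higher mean in KO at every time, while the WT values of Ndufs3 at 0.5 h (0.68 to 0.71) stood above all other groups.

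In complex III the gene with the widest range was Uqcrb, the small subunit near the ubiquinone site. In WT at 2 h it read 1.48, 1.35 and 0.79, against -0.13, 0.18 and -0.17 untreated. In KO at 2 h it read 1.36, 1.37 and 1.67, against 0.19, 0.08 and 1.48 untreated. Both genotypes were high at 2 h, but untreated KO replicate 3 was as high as the 2 h values.

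The rise of Uqcrb in WT at 2 h was 1.25 ± 0.27 (2.38-fold, adjusted p 0.031 by limma), and in KO the value was 0.88 ± 0.27 (adjusted p 0.644). With array set as a term the WT value of Uqcrb was 0.29 (adjusted p 1.00 by limma), and with the sign of the doubtful WT array turned it was 0.90 (0.0576). At 0.5 h, read on the same array set as 2 h, Uqcrb was only 0.11 to 0.37 in WT and 0.01 to 0.47 in KO. Untreated KO replicate 3 (1.10 in Cy5, 1.86 in Cy3) lies in set A with KO 2 h replicate 3. Only these set A replicates link set D, which holds WT at 2 h, to the sets of untreated WT. The 0.29 with array set as a term thus rests on them, the high untreated KO replicate 3 included. That term cannot show the part of array set in the Uqcrb values, which was not tested otherwise. The Uqcrb call at 2 h was lost without WT 0 h replicate 1 (1.20, adjusted p 0.0911) or 2 (1.36, 0.0781) and without WT 2 h replicate 1 (1.11, 0.200) or 2 (1.18, 0.160), all by limma.

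At 24 h in KO, Uqcrb fell by 1.00 ± 0.27 (adjusted p 0.0367 by limma), with values of -0.77, -0.56 and 0.06. Without untreated KO replicate 3 that Uqcrb value was -0.56 (adjusted p 0.240 by limma), and without KO 24 h replicate 1 or 2 it was -0.83 (0.126) or -0.94 (0.104). Uqcrc2, a core subunit of complex III, was -0.38, -0.45 and -0.25 in WT at 12 h and -0.05, -0.04 and 0.11 untreated, without overlap. The fall of Uqcrc2 was -0.36 ± 0.10 (adjusted p 0.0334 by limma). It turned to 0.11 on Cy5 arrays only, and its adjusted p was 0.0511 with a replicate block, 0.0568 without WT 0 h replicate 2, 0.146 without WT 0 h replicate 3, 0.0959 without WT 12 h replicate 1 and 0.138 without WT 12 h replicate 2. The Rieske iron-sulfur subunit Uqcrfs1 ranged from -0.06 untreated in WT to 0.44 in KO at 2 h and was called in no comparison.

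No gene of complex IV was called in any of the 18 comparisons. Cox5a, a nuclear subunit on the matrix side, had the largest genotype difference of the complex averaged over the times (0.18 ± 0.07, adjusted p 0.0909 by limma). Cox5a values at 2 h were 0.25, 0.47 and 0.83 in KO and 0.12, 0.25 and 0.27 in WT, which overlapped. Cox4i1, the common form of the regulatory subunit 4, had group means from -0.15 (WT at 2 h) to 0.11 (KO at 24 h). Cox5b ranged from -0.17 to 0.22 and Cox6c from -0.16 to 0.30.

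Several complex IV subunits come in a form common to most tissues and a heart and muscle form, and ratios to a pool give no level of one form against another. The common form Cox6a1 ranged from -0.08 in WT at 12 h to 0.53 in WT at 0.5 h, and Cox7a2 from -0.22 in WT at 12 h to 0.35 in KO at 2 h. Cox6b1 ranged from 0.01 to 0.31. The muscle forms Cox6a2, Cox7a1 and Cox8b, the lung form Cox4i2 and the common Cox8a had too few values for the test. Cox8c, the testis form, ranged from -0.15 to 0.17. No probe was named for Cox6b2, Atp5g3 or Sdhd.

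Of the complex V genes, Atp5j was called between genotypes and Atp5o over hours of HGF. Atp5j, coupling factor 6 of the stalk that joins the catalytic head to the membrane part, was 0.99, 1.12 and 0.23 in WT at 0.5 h and 0.08, 0.10 and 0.28 in KO. The third WT value overlapped with KO. KO was lower by -0.63 ± 0.17 (adjusted p 0.0364 by limma).

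Both high Atp5j values came from the Cy3 arrays of WT replicates 1 and 2 (1.35 and 1.67, against -0.27 for replicate 3), while Cy5 gave 0.64, 0.57 and 0.74 in WT and 0.72, 0.88 and 0.80 in KO. On Cy5 arrays only, the Atp5j difference was 0.15. The Atp5j call was lost without WT replicate 1 (-0.52, adjusted p 0.136 by limma), WT replicate 2 (-0.46, 0.186), KO replicate 1 (-0.59, 0.108), KO replicate 2 (-0.60, 0.134) or KO replicate 3 (-0.69, 0.0583).

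Atp5o, the subunit that confers oligomycin sensitivity, was 0.37, 0.61 and -0.03 in WT at 24 h and -0.10, -0.02 and -0.28 untreated, with replicate 3 at 24 h overlapping. The 0.61 is from replicate 2, whose arrays lie in different sets. In WT at 24 h Atp5o was 0.92, 0.71 and 0.20 in Cy5 and -0.18, 0.51 and -0.26 in Cy3. The rise of Atp5o was 0.45 ± 0.13 (adjusted p 0.0362 by limma). It was not called without WT 0 h replicate 1 (0.46, adjusted p 0.0664), WT 0 h replicate 3 (0.37, 0.125), WT 24 h replicate 1 (0.42, 0.103) or WT 24 h replicate 2 (0.30, 0.218). The rise of Atp5o was 0.75 on Cy5 arrays and 0.15 on Cy3 arrays, and 0.16 (adjusted p 0.551 by limma) with the sign of the doubtful WT array turned.

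Of the catalytic head, Atp5a1 (alpha) ranged from 0.02 in WT at 2 h to 0.44 in KO at 0.5 h. Atp5b (beta) ranged from -0.09 in WT at 2 h to 0.30 in WT at 24 h, and Atp5c1 (gamma, the rotating shaft) from -0.26 to 0.31. The c-ring genes Atp5g1 and Atp5g2, which encode the same mature protein with different import sequences, ranged from 0.00 to 0.39 and from -0.08 to 0.29. Neither they nor the head genes were called in any comparison. Atp5md, a small membrane subunit, was the only gene with a second probe, and the probes disagreed: KO minus WT untreated was 0.08 on the probe used and 0.57 on the other.

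Among the assembly factors, Ndufaf8 differed between genotypes on average over the time course. Ndufaf8, which acts with Ndufaf5 in building the matrix arm of complex I, was lower in KO by -0.29 ± 0.06 averaged over the times (95% interval -0.42 to -0.17, adjusted p 0.00208 by limma). At 0.5 h Ndufaf8 was 0.05, 0.05 and 0.18 in KO and 0.60, 0.57 and 0.53 in WT, without overlap. At 12 h it was 0.21, -0.25 and 0.19 in KO and 0.41, 0.28 and 0.43 in WT, also apart.

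Untreated, Ndufaf8 was 0.16, 0.10 and 0.34 in KO and 0.49, 0.64 and 0.23 in WT, where KO replicate 3 lay above WT replicate 3. At 2 h (KO 0.12, 0.15 and -0.09, WT 0.39, 0.10 and 0.49) and 24 h (KO 0.06, 0.09 and -0.22, WT 0.25, -0.04 and 0.14) the genotypes overlapped. The 5 Ndufaf8 differences were -0.25, -0.47, -0.27, -0.33 and -0.14 in order of time, the one at 0.5 h called on its own (adjusted p 0.0473 by limma), a call lost without any 1 of its 6 replicates (-0.52 to -0.45, adjusted p 0.0735 to 0.163). The averaged Ndufaf8 difference was kept in 13 of 13 alternative analyses (-0.32 to -0.26) and in 30 of 30 leave-outs. No other of the 66 genes kept a call in every alternative and leave-out run for it.

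Ndufaf7, a methyltransferase that acts on a core subunit of complex I, was -0.20, -0.46 and -0.91 in WT at 0.5 h and 0.31, 0.24 and 0.50 in KO. KO was higher by 0.87 ± 0.22 (1.83-fold, adjusted p 0.0248 by limma), without overlap. That Ndufaf7 call was kept only without WT replicate 1, and without WT replicate 3 the difference was 0.68 (adjusted p 0.159), without WT replicate 2 0.90 (0.0602), and without KO replicates 1, 2 or 3 0.89 (0.0608), 0.93 (0.0678) or 0.80 (0.0852). Ndufaf3, another complex I assembly factor, was -0.50, -0.56 and -0.30 in WT at 24 h and 0.05, 0.50 and 0.20 untreated. The fall of Ndufaf3 was -0.70 ± 0.20 (adjusted p 0.0268 by limma), and the call was lost without WT 0 h replicate 2 (-0.57, adjusted p 0.123), WT 24 h replicate 1 (-0.68, 0.077) or WT 24 h replicate 2 (-0.65, 0.0933).

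**Figure D4:**
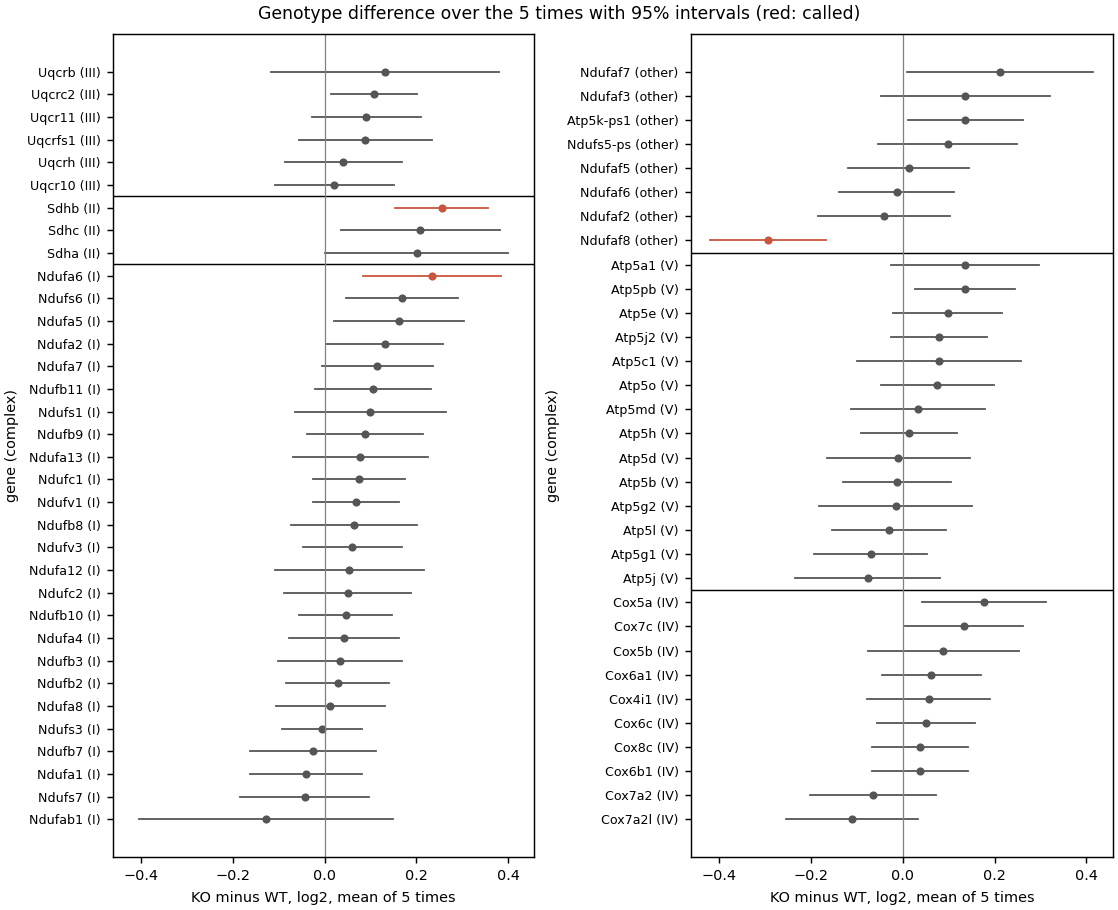
KO minus WT averaged over the 5 times on the log2 scale, with 95% intervals, for the 66 tested genes by complex, called genes in red. Sdhb (0.25), Ndufa6 (0.23) and Ndufaf8 (-0.29) were called, and every interval lay within 0.5 of 0.

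Compared by complex, genotype differences reached at most 0.32, given here as medians over genes without a test. Complex II had the largest: the medians over its 3 genes averaged 0.32 ± 0.14 (SD, n = 3) untreated in KO and 0.03 ± 0.18 in WT, and 0.25 ± 0.16 in KO and -0.07 ± 0.11 in WT at 12 h. The untreated replicates overlapped (0.40, 0.40 and 0.16 in KO, 0.08, 0.19 and -0.17 in WT), while at 12 h KO (0.34, 0.06 and 0.35) lay just above WT (-0.14, -0.13 and 0.06). Averaged over the times, the median genotype difference was 0.21 for complex II, 0.09 for complex III, 0.06 for complex I, 0.05 for complex IV and 0.02 for complex V, beside -0.00 over all probes. Complex II was higher in KO with either dye untreated (0.52 and 0.19 in Cy5, 0.08 and 0.03 in Cy3) and at 12 h (0.60 and 0.38 in Cy5, -0.15 and -0.49 in Cy3). At 0.5 h it was not: its means were 0.31 ± 0.09 in KO and 0.36 ± 0.10 in WT, with 0.83 and 0.54 in Cy5 and -0.23 and 0.11 in Cy3. By the median of gene differences, complex II at 0.5 h was 0.06 higher in KO, with 2 of 3 genes positive, so the 2 measures differed in sign. At 2 h its replicates (0.20, 0.04 and 0.06 in KO, -0.14, -0.07 and -0.13 in WT) were apart. It is 3 genes, Sdhb among them.

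Over the 5 complexes and 5 times, KO lay above WT without overlap in 6 of 25 comparisons and below in 0. The complexes were read on the same arrays at each time, so the 25 are not independent. No such share was counted over all probes, so the count is a description only. The 6 were complexes I and II at 2 and 12 h, complex III untreated and complex IV at 2 h. For complex I the replicate medians at 2 h were 0.01, 0.16 and 0.02 in KO and -0.12, -0.12 and -0.02 in WT, without overlap, and KO was the higher with either dye (0.12 and 0.03 in Cy5, 0.11 and -0.14 in Cy3). At 12 h they were 0.24, 0.10 and 0.18 in KO and -0.08, 0.01 and 0.07 in WT, also apart. Complex III was apart untreated by a small gap (0.14, 0.18 and 0.10 in KO, -0.04, 0.08 and -0.03 in WT). Complex IV was apart at 2 h by a small gap (0.12, 0.25 and 0.16 in KO, 0.10, -0.06 and 0.00 in WT) and overlapped at 12 h. Complex V overlapped between genotypes at 0, 2, 12 and 24 h, and in WT at 24 h it had its highest mean (0.25 ± 0.22, SD, n = 3) with replicates from 0.02 to 0.47. The 0.47 was WT 24 h replicate 2, whose Cy5 and Cy3 arrays lie in different sets. At 0.5 h the replicate medians of complex V were 0.14 to 0.31 in WT and 0.04 to 0.26 in KO, which overlapped too.

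Over all 66 genes, 56 were higher in KO at 0 h, 55 at 2 h and 52 at 12 h, where 51.5, 53.2 and 49.9% of all probes were. The medians were 0.10, 0.11 and 0.13, beside 0.01, 0.02 and -0.00 over all probes, but the 0 h median was -0.12 on Cy3 arrays only and -0.06 with the sign of the doubtful WT array turned, and the 12 h median -0.02 on Cy5 arrays only. At 0.5 h 20 of 66 were higher in KO (median -0.05), and the median was 0.11 on Cy5 arrays only and 0.18 with the leading dye profiles removed. HGF for 0.5 h in WT gave 58 of 66 above untreated, with a median of 0.16 beside 0.04 over all probes, which was -0.02 on Cy3 arrays only and -0.01 with dye profiles removed. Of the genotype medians, those at 2 h (0.08 and 0.16) and averaged (0.12 and 0.01) were positive in both Cy5 and Cy3, and those at 0, 0.5, 12 and 24 h differed in sign between the dyes.

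**Figure D5:**
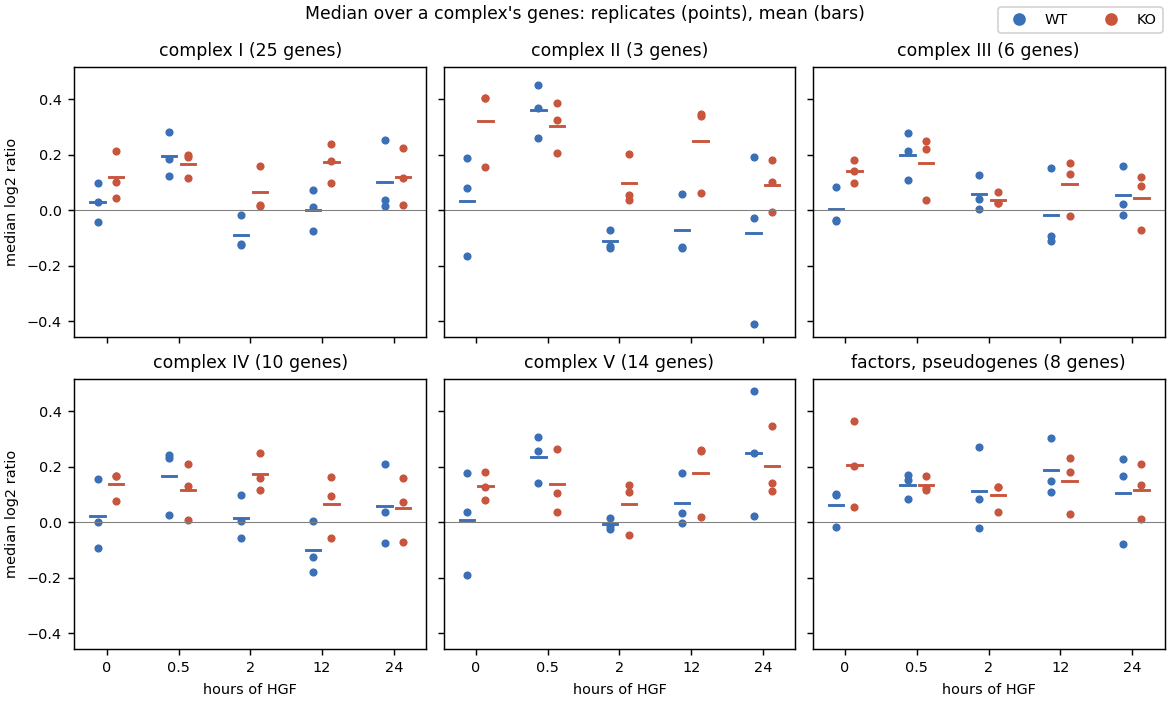
Median log2 ratio over the tested genes of each complex in each replicate (points) with the mean of 3 replicates (bars), over hours of HGF, WT in blue and KO in red. The KO mean lay above the WT mean for complex II untreated and at 12 h (0.32 and 0.03, 0.25 and -0.07) and below it at 0.5 h (0.31 and 0.36).

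Respiratory chain genes also varied less than other probes. The residual SD of the median gene was 0.161, against 0.211 over all probes, and 53 of the 66 lay below that. The range of the 10 group means was 0.447 for the median gene against 0.575, and 52 of 66 lay below, with Uqcrb (1.89) at the top.

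The 15 genes without a test were Atp5k, Atp5mpl, Cox4i2, Cox6a2, Cox7a1, Cox8a, Cox8b, Ndufa10, Ndufa9, Ndufb4, Ndufb5, Ndufs4, Ndufv2, Uqcrc1 and Uqcrq. Uqcrc1, the other core subunit of complex III, had group means from -0.81 ± 0.42 (SD, n = 3) in KO at 2 h to 0.32 ± 0.12 (SD, n = 3) in WT at 12 h. The filter was on missing values and says nothing of whether these genes are expressed.

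Other genes of the pathway were taken from lists of known function, whose counts are given beside the share of all probes called. Of 56 tested mitoribosome genes, 6 rose after 12 h of HGF in WT (10.7%, against 5.81% of all probes) and 8 rose and 2 fell after 24 h (17.9%, against 8.72%), with medians of 0.12 and 0.07 beside 0.02 and -0.03 over all probes. Mrps21, of the small subunit, rose by 0.92 ± 0.13 at 24 h (adjusted p 5.68e-05 by limma), and Mrpl24, of the large subunit, changed by -0.83 ± 0.14 (adjusted p 4.76e-04). Averaged over the times, 1 was higher and 6 lower in KO (12.5%, near the 10.1% of all probes), led by Mrpl38 (-0.75 ± 0.06, adjusted p 1.41e-08 by limma).

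In the same averaged comparison, against 10.1% of all probes, 3 of 13 tested assembly factors of complexes II to V were higher in KO and 0 lower (23.1%), including Sdhaf1, which helps insert the iron-sulfur clusters of Sdhb (0.27 ± 0.06, adjusted p 0.00731 by limma), and Bcs1l, the complex III chaperone (0.29 ± 0.07, adjusted p 0.00385). Of 9 tested complex I assembly factors in their list, which holds other Ndufaf genes but not Ndufaf8 (lower in KO, above), 1 was higher on average (11.1%), Nubpl (0.25 ± 0.06, adjusted p 0.00816 by limma). Of 12 electron carriers and related genes, 3 were higher and 1 lower on average (33.3%): Etfb, which carries electrons from fatty acid oxidation, was higher (0.45 ± 0.07, adjusted p 9.83e-05 by limma), and Etfdh, which passes them to ubiquinone, was lower (-0.52 ± 0.15, adjusted p 0.0258). The ADP/ATP carrier Slc25a4 rose in WT by 0.72 ± 0.18 after 12 h (adjusted p 0.0198) and 0.72 ± 0.18 after 24 h (adjusted p 0.0117 by limma). Of 15 citric acid cycle genes 1 was higher (Suclg2, 0.20 ± 0.05) and 1 lower on average (Pdha1, -0.29 ± 0.08), which is 13.3%, and of 8 regulators of mitochondrial biogenesis only Nrf1 was called (-0.26 ± 0.08, adjusted p 0.0296 by limma), which is 12.5%. These last shares lie near that of all probes.

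Markers of other liver cells were read in the same averaged comparison, where 10.1% of all probes were called. Of 4 tested endothelial markers, 2 were lower in KO on average. The mean over the list ran from -0.41 to -0.38 in KO and from -0.01 to 0.07 in WT at 0.5 h, and from -0.52 to -0.36 and from -0.03 to 0.18 at 12 h. At the other times the genotypes overlapped. Untreated, the list mean ran from -0.28 to -0.05 in KO and from -0.20 to 0.03 in WT. At 2 h KO was the higher (-0.19 to -0.05, against -0.37 to -0.12 in WT). At 24 h it ran from -0.74 to -0.23 in KO and from -0.37 to 0.04 in WT. Of 7 Kupffer cell markers 1 was higher in KO on average, of 5 stellate cell markers 1 was higher, and of 7 bile duct markers 2 were lower (14.3, 20 and 28.6%, each resting on 1 or 2 genes). Their part in the differences of Sdhb and Ndufaf8 was not tested. The hepatocyte marker mean ran from -1.31 to -0.84 in WT and from -1.05 to -0.44 in KO at 24 h, against -0.24 to -0.01 and -0.22 to -0.01 untreated, while the median of the 66 respiratory chain genes was 0.08 in WT and 0.10 in KO at 24 h.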

How the data were processed

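Per the labels, 60 two-colour oligonucleotide arrays were read. Their deposited data are normalized log2 ratios, for which the base was inferred from the range (-11.6 to 9.85). No source used here names the normalization. For the 12 h samples the treatment field says 0.5 h, and the titles were followed. The dose is also given as 50 nM.

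The median of each array was subtracted, and both orientations were averaged, which gave 30 replicates. Tested probes had both orientations for 2 or more of the 3 replicates of every group (14580 of 21997, 66.3%, with 6.01% of values missing). With limma 3.58.1 (R 4.3.3), a mean for each of the 10 groups was fitted (20 residual and 4.48 prior degrees of freedom). The 18 comparisons were tested two-sided and adjusted by Benjamini-Hochberg over all tested probes, called under 0.05. Values are differences ± standard error, with 3 and 3 replicates unless stated. Precision is limited by the number of replicates, and if they shared mice or cultures, p-values measure only the spread between these samples.

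Genes were named from the platform's probe annotation (16076 probes with 1 symbol, 288 with several, 5633 with none). Named are all called genes, the 2 largest differences per direction, a panel of core subunits, tissue forms, and at most 3 called genes of each other list and comparison. Not all of these are printed. Members and lists were chosen with earlier results of these data known. Alternatives changed centring, scale, probe filter, groups fitted, orientation, array set, weights, replicate block, dye profiles, the sign of 1 array, and left out each replicate. The method was tested on simulated data with independent errors and planted changes. That simulation held no differences between dyes or array sets, so it says nothing of how the method handles them.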

Additional observations from a re-analysis of the deposited data

How the results depend on the processing

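Averaged over the times, the Ndufaf8 difference was called in every alternative and leave-out run, and the Sdhb difference in all but the 2 analyses of a single orientation (a stricter probe filter left Sdhb untested). Differences that changed sign did so on Cy5 arrays only: at 0.5 h between genotypes Ndufs3 was 0.059, Atp5j 0.15 and Ndufa4 0.12, and Uqcrc2 after 12 h of HGF in WT was 0.11. The cause was not tested.

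Counts of called respiratory chain genes moved as follows, with the share of all probes called under the same setting in brackets for counts above 0. For counts of 0 that share is not given, so a fall to 0 cannot be told from fewer calls over the whole array. Between genotypes at 0.5 h, the 5 became 3 without centring (4.13%), 0 on Cy5 arrays, 8 with weights by group spread (20.8%), 2 with the sign of the doubtful array turned (5.02%) and 3, all higher in KO, with dye profiles removed (2.66%). At 2 h the 0 became 6 with scale normalization (7.17%), 2 with only the groups compared (2.76%), 2 with array set as a term (2.87%), 1 within 1 array set (2.17%), 4 with weights (7.72%) and 1 with dye profiles removed (1.21%). At 12 h the 0 became 3 with array set as a term (7.17%). Averaged, the 3 became 6 with scale normalization (12.5%), 1 on Cy5 arrays (4.61%), 1 on Cy3 arrays (4.05%) and 19 (18 higher in KO) with dye profiles removed (12.7%). For HGF in WT at 0.5 h, the 1 became 0 with only the groups compared, on Cy5 arrays, on Cy3 arrays, with array set as a term and with the sign turned. At 2 h the 1 became 8 with scale normalization (9.21%), 2 on Cy5 arrays (0.472%), 5 with the sign turned (7.53%), 3 with dye profiles removed (1.76%), and 0 with only the groups compared, on Cy3 arrays, with array set as a term and with weights. At 12 h the 1 became 3 on Cy5 arrays (6.1%), 14 on Cy3 arrays (5.47%), 2 with the sign turned (5.8%), 2 with dye profiles removed (10.2%), and 0 with scale normalization, only the groups compared, within 1 array set and with weights. At 24 h the 2 became 1 with scale normalization (5.67%), 4 with a stricter probe filter (11.6%), 0 with only the groups compared, 1 on Cy3 arrays (3.71%), 8 with array set as a term (14.8%), 1 within 1 array set (6.15%), 0 with weights and 5 with dye profiles removed (11.7%). In KO, 1 gene was called at 2 h with scale normalization (0.329%). At 24 h in KO the 1 became 2 with dye profiles removed (4.8%) and 0 with scale normalization, only the groups compared, Cy5 arrays, Cy3 arrays, array set as a term, within 1 array set, weights and the sign turned.

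Leaving out 1 replicate, the counts ranged from 0 to 0 (0 h), 1 to 2 (0.5 h), 0 to 0 (2 h), 0 to 1 (12 h) and 0 to 1 (24 h) between genotypes, and from 2 to 4 averaged. For HGF in WT they ranged from 1 to 6 (0.5 h, 6 without WT 0 h replicate 2), 0 to 3 (2 h), 0 to 2 (12 h) and 1 to 8 (24 h, 8 without WT 24 h replicate 3), in KO from 0 to 0, 0 to 1, 0 to 0 and 0 to 1, and for the differences of responses from 0 to 1 at 0.5 h and 0 to 0 at the later times. The share of all probes called in these runs is not given. A moved count thus cannot be told from a change over the whole array.

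A replicate block gave 0 calls for HGF at 12 h in WT and 2 for the average, where Ndufa6 had an adjusted p of 0.0527 in limma, and the same counts elsewhere. The share of all probes called with that block is not given. Same-numbered replicates correlated from -0.252 to 0.667 within genotype, and 18 of 30 correlated best with their own number, so the numbers were not taken as pairing. A fit within 1 array set was not possible for HGF at 0.5 and 2 h or for the average. Alternative values were also compared singly for the called genes and a panel of named genes, mostly for differences without a call. Of these values, 4694 kept a call or stayed without one and shifted by under 1 standard error. Another 746 also stayed without a call but shifted by at least 1 standard error, 122 lost a call, 40 gained one and 4 changed sign. Of the 14 calls themselves, 3 were kept on Cy5 arrays only and 6 on Cy3 arrays only.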
